A study of Bos taurus with 8 samples.

Results

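Glycolytic enzymes convert glucose 6-phosphate to pyruvate and lactate in the cytosol, and 10 of them were taken by symbol in the order of the pathway: GPI, PFKM, ALDOA, TPI1, GAPDH, PGK1, PGAM2, ENO3, PKM and LDHA. An array probe was assigned to an enzyme when the RefSeq transcript named for it in the scanner output belonged to that gene, and the brightest probe of each gene was used. This gave 8 of the 10 enzymes, of 6693 named genes measured on the arrays, and all 8 passed the filter on dim probes. No probe was matched to PFKM or PKM, and these enzymes were not analysed here. GAPDH had 3 probes and each of the other enzymes 1.

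Skeletal muscle expresses its own set of glycolytic isozymes, and fast-contracting fibres hold more of these enzymes than slow, oxidative fibres. The first steps rearrange and split the hexose at the cost of ATP, and the later steps return ATP and reduce NAD+ to NADH. Lactate dehydrogenase then regenerates NAD+ from pyruvate when flux outruns the mitochondria. The transcripts are among the most abundant in adult muscle, and their level is one part of what sets the amount of enzyme.

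RNA came from the m. semitendinosus, a hind limb muscle, of bulls aged 15 months, with 4 Hereford, 4 Holstein-Friesian and 4 Limousin animals. Hereford and Holstein-Friesian were taken as well-marbled breeds and Limousin as the lean breed. Each of the 8 2-colour arrays held 1 bull of a marbled breed and 1 Limousin bull. Hereford RNA was always labelled with Cy5 beside Limousin in Cy3, and on the other slide Holstein-Friesian RNA was always labelled with Cy3 beside Limousin in Cy5. The 4 Limousin animals were the same on either slide and numbered alike, so both breed comparisons share them. Breed, dye and slide therefore cannot be told apart in a ratio of breed over Limousin. All values are log2 ratios of probe intensity after loess unless another scale is named, and a call means a p under 0.05 after Benjamini-Hochberg adjustment across 17061 probes. The RNA was from whole muscle, so fewer cells of a type and less RNA per cell cannot be told apart.

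The median net signal of a channel was 97 to 139 intensity units for Hereford. It was 30.5 to 46.5 for Holstein-Friesian, and 63 to 118 over both dyes for Limousin. Each array had 6 to 29 outlier spots and 0 saturated ones. Of 10 listed identity markers of skeletal muscle, 8 had a probe, and these 8 were well above background in all 16 channel readings. The 8 enzyme probes were likewise above background in all 16 readings. They were very bright, between rank 3 (ALDOA) and rank 91 (GPI) of 17061 probes by mean intensity.

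In Holstein-Friesian muscle the glycolytic enzyme transcripts lay below Limousin. All 8 had a mean ratio under 0, with a median of -0.68 and a range of -1.27 (PGK1) to -0.24 (GAPDH), against a median of -0.01 over all probes. In limma's fit 6 of the 8 fell, namely GPI, ALDOA, TPI1, PGK1, PGAM2 and ENO3, where 6.45% of all probes were called and 3.45% were called lower. GAPDH and LDHA did not pass. With the Limousin bull as a replicate block 3 were called (ALDOA, TPI1 and PGK1), where 3.35% of all probes were called lower. Against Limousin in the same dye the enzyme median was -0.34. There 3 were called (GPI, PGK1 and ENO3), where 2.98% of all probes were called lower. The 4 arrays had enzyme medians of -0.87, -0.34, -0.83 and -0.52, and GAPDH in replicate 2 was the 1 single ratio above 0. Leaving out Holstein-Friesian and Hereford replicate 1, 2 or 4 left 0 of the 6 calls, and leaving out replicate 3 left PGAM2 alone; at an unadjusted p under 0.05, 7 or 8 enzymes passed in each of these fits.

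The first enzyme of the set is glucose-6-phosphate isomerase, GPI (NM_001040471), which makes fructose 6-phosphate. Its ratios in the 4 Holstein-Friesian arrays were -1.09, -0.36, -0.82 and -0.50, and its Hereford ratios were 0.05, -0.73, -0.20 and -0.02. All Holstein-Friesian bulls lay below their Limousin partners, but the Hereford range overlapped the Holstein-Friesian range. The mean in Holstein-Friesian was -0.69 ± 0.33 (SD, n = 4), or 0.618 times Limousin, with an adjusted p of 0.0391 in limma. With the Limousin bull as a replicate block the adjusted p was 0.0563. In normalised intensity GPI stood at 15.24 ± 0.40 in Holstein-Friesian and 16.06 ± 0.16 in Limousin, both in Cy3 (log2, SD, n = 4), and these levels did not overlap.

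Aldolase A, ALDOA (NM_001101915), splits fructose 1,6-bisphosphate into a pair of triose phosphates and is the aldolase of muscle. It read -1.39, -0.32, -0.84 and -0.60 in the Holstein-Friesian arrays, and 0.13, 0.12, 0.16 and 0.80 in the Hereford arrays. Every Hereford ratio was above every Holstein-Friesian ratio, as for 7.98% of all probes. Hereford replicate 4 stood apart from the other 3 of its breed. ALDOA fell by 0.79 in Holstein-Friesian (SD 0.46, n = 4), with an adjusted p of 0.0406 in limma. Triosephosphate isomerase, TPI1 (NM_001013589), interconverts those trioses. It had ratios of -0.98, -0.48, -0.62 and -0.54 in Holstein-Friesian, and of 0.42, 0.05, 0.58 and 0.02 in Hereford. Again the breeds did not overlap, and the Holstein-Friesian mean of -0.65 ± 0.23 (SD, n = 4) had the smallest adjusted p of the set, 0.0200. Against Limousin in the same dye, however, TPI1 stood at -0.08 with an adjusted p of 0.602 in limma. In that reading the breeds overlapped for both ALDOA and TPI1.

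Glyceraldehyde-3-phosphate dehydrogenase, GAPDH (NM_001034034), forms 1,3-bisphosphoglycerate and NADH, and is widely used as a reference transcript. Its Holstein-Friesian ratios were -0.68, 0.38, -0.28 and -0.39, and its Hereford ratios were -0.16, 0.15, 0.60 and 0.61. The ratios of both breeds lay on both sides of 0 and overlapped. The Holstein-Friesian mean was -0.24 ± 0.45 (SD, n = 4), with an adjusted p of 0.486 in limma. The other GAPDH probes averaged -0.47 and -0.27 there, so all 3 lay under 0 and none was called. GAPDH was the highest of the 8 enzymes in 3 of the 4 Holstein-Friesian arrays.

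Phosphoglycerate kinase 1, PGK1 (NM_001034299), makes the first ATP of the later steps, and it had the lowest Holstein-Friesian mean of the set. It was also the lowest of the 8 in 4 of 4 arrays of that breed, with ratios of -1.49, -0.79, -2.04 and -0.74. In Hereford it read 0.18, -0.75, 0.37 and 0.39. Hereford replicate 2 thus lay as low as the highest Holstein-Friesian ratios, and the other 3 Hereford arrays were above 0. PGK1 fell by 1.27 in Holstein-Friesian (SD 0.62, n = 4), to 0.416 times Limousin, with an adjusted p of 0.0293 in limma. Its level was 15.56 ± 0.59 in Holstein-Friesian and 16.61 ± 0.34 in Limousin in the same dye (log2 intensity, SD, n = 4), with no overlap. GPI and PGK1 were the 2 enzymes whose Holstein-Friesian levels were all below those of Limousin in Cy3, as were 7.57% of all probes.

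Phosphoglycerate mutase 2, PGAM2 (NM_001038111), is the muscle form of the mutase that moves the phosphate to the second carbon. Its ratios were -0.53, -0.75, -0.97 and -0.64 in Holstein-Friesian, and 0.06, -0.20, 0.91 and 0.26 in Hereford. This gave the narrowest Holstein-Friesian spread of the set, a mean of -0.72 ± 0.19 (SD, n = 4) with an adjusted p of 0.0402 in limma and of 0.0549 with the replicate block. Enolase 3, ENO3 (NM_001034702), is the muscle enolase, which forms phosphoenolpyruvate. It had ratios of -0.76, -0.30, -0.80 and -0.49 in Holstein-Friesian, against -0.05, -0.21, 0.55 and 0.27 in Hereford. For both genes the breeds did not overlap, but they did against Limousin in the same dye. ENO3 averaged -0.59 ± 0.23 in Holstein-Friesian (SD, n = 4), with an adjusted p of 0.0402 in limma and of 0.0554 with the replicate block.

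Lactate dehydrogenase A, LDHA (NM_174099), encodes the muscle subunit of the enzyme that turns pyruvate into lactate. It read -0.72, -0.24, -1.20 and -0.50 in Holstein-Friesian, and 0.69, 0.09, 0.68 and 0.80 in Hereford. All 4 ratios of one breed were under 0 and all 4 of the other above it. Against Limousin in the same dye this split did not hold: Hereford ran from -0.01 to 0.57 and Holstein-Friesian from -0.61 to 0.05. Neither mean passed: the Holstein-Friesian mean was -0.66 ± 0.41 with an adjusted p of 0.0535, and the Hereford mean was 0.56 ± 0.32 with an adjusted p of 0.0784 (SD, n = 4 arrays each, limma).

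**Figure D1:**
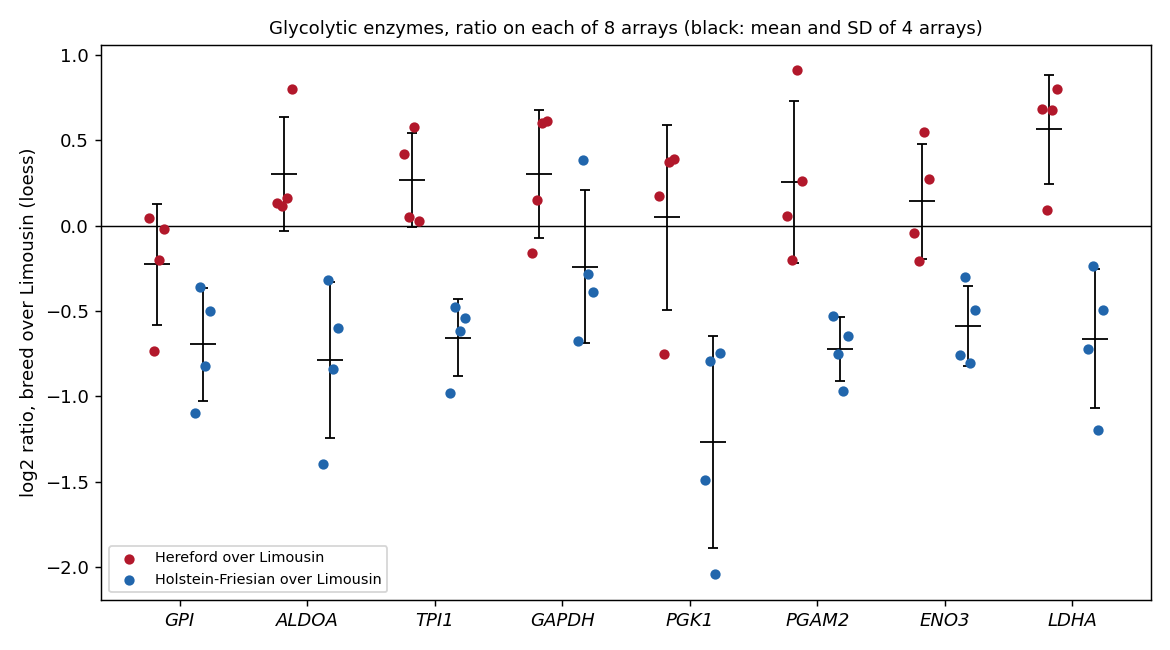
Log2 ratio of breed over Limousin (vertical axis) of 8 glycolytic enzymes in pathway order, for the 4 Hereford arrays (red) and the 4 Holstein-Friesian arrays (blue), with the mean and SD in black. The Holstein-Friesian points lie under 0 except 1 GAPDH point at 0.38, and the breeds do not overlap for ALDOA, TPI1, PGAM2, ENO3 and LDHA. Every Hereford ratio is above every Holstein-Friesian ratio for 7.98% of all probes. Against Limousin in the same dye, not drawn here, the breeds overlap for each of these enzymes.

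In Hereford muscle the distance of the same transcripts from Limousin, and its side, depended on the reading. After loess limma called 0 of the 8, where 7.14% of all probes were called, 3.39% higher and 3.75% lower. At an unadjusted p under 0.05, 1 enzyme passed, as did 4122 of the 17061 probes. The mean ratio was above 0 for 7 of the 8, with a median of 0.26 and a range of -0.23 (GPI) to 0.56 (LDHA), against 0.01 over all probes; with the processed signals of the scanner PGK1 (-0.11) and ENO3 (-0.10) lay under 0, and with median centring GPI (0.29) lay above it. With median centring 8 of the 8 lay above 0 with a median of 0.88. There 6 passed at an unadjusted p under 0.05, as did 3699 of the 17061 probes. ALDOA was called there, where 1.61% of all probes were called higher. The median was 0.05 with the processed signals and -0.12 against Limousin in the same dye, where 7 of 8 lay under 0. After loess, the median without replicate 3 was 0.10, with PGAM2 at 0.04 and ENO3 at 0.0072, and without replicate 2 GPI was at -0.06. The 4 arrays had enzyme medians of 0.09, -0.07, 0.56 and 0.33. Replicate 2 held the lowest ratio for 6 of the 8 enzymes. Between those extremes ALDOA averaged 0.30 ± 0.33, TPI1 0.27 ± 0.28, GAPDH 0.30 ± 0.38, PGK1 0.05 ± 0.54, PGAM2 0.26 ± 0.48 and ENO3 0.14 ± 0.33 (SD, n = 4 each), with adjusted p from 0.208 to 0.942 in limma.

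Averaging the Hereford and Holstein-Friesian ratios of each Limousin bull gives 1 value per bull for the marbled breeds, in which a dye effect common to both slides drops out. Here 7 of the 8 enzymes had a mean under 0, with a median of -0.23, and 0 were called in limma, where 0.598% of all probes were. At an unadjusted p under 0.05, 5 enzymes passed, as did 3336 of the 17061 probes. GPI read -0.52, -0.55, -0.51 and -0.26 for the 4 Limousin bulls, a mean of -0.46 ± 0.13 (SD, n = 4) with an adjusted p of 0.0573. PGK1 read -0.66, -0.77, -0.83 and -0.18, a mean of -0.61 ± 0.30 (SD, n = 4) with an adjusted p of 0.0906. GPI and PGK1 thus lay below Limousin in 4 of 4 bulls, as did TPI1 (-0.19 ± 0.12), PGAM2 (-0.23 ± 0.18) and ENO3 (-0.22 ± 0.13). The means of ALDOA (-0.24 ± 0.32), LDHA (-0.05 ± 0.17) and GAPDH (0.03 ± 0.31) were within 1 SD of 0. The GAPDH mean was -0.035 with the processed signals and -0.025 with median centring.

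The contrast of Hereford minus Holstein-Friesian asks whether the breeds differed from each other through their shared Limousin bulls. All 8 enzymes read higher in Hereford, with a median difference of 0.95 and a range of 0.47 (GPI) to 1.32 (PGK1). Limma called 2, TPI1 at 0.92 ± 0.17 with an adjusted p of 0.0355 and LDHA at 1.23 ± 0.23 with an adjusted p of 0.0404 (SE), where 1.56% of all probes were called higher. With the replicate block 6 were called, adding ALDOA (1.09, adjusted p 0.0222), PGK1 (1.32, adjusted p 0.0458), PGAM2 (0.98, adjusted p 0.0298) and ENO3 (0.73, adjusted p 0.0388). That fit called 5.59% of all probes higher. The ratios of the breeds did not overlap for 5 of the 8, and 7.98% of all probes had every Hereford ratio above every Holstein-Friesian ratio. Against Limousin in the same dye the breeds overlapped for each of these 5. Without replicate 1, 2, 3 or 4, limma without the block called 0 of the 8, and 6 to 8 of them passed at an unadjusted p under 0.05. With all 8 arrays, 3592 of the 17061 probes passed at that level.

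Such a dye effect adds up in that contrast, and each Limousin bull was read in both dyes. All its Cy3 readings were on the Hereford slide and all its Cy5 readings on the Holstein-Friesian slide, so the difference holds dye and slide together. Of the 8 enzymes 7 read higher in Cy5 than in Cy3 for the same Limousin animals, with a median of 0.31 and GPI alone under 0 at -0.13; with median centring GPI was at 0.49. Limma called TPI1 and GAPDH higher in Cy5, where 4.40% of all probes were called, 1.96% higher and 2.44% lower. For TPI1 the 4 bulls gave 0.71, 0.39, 0.71 and 0.49, a mean of 0.57 ± 0.16 (SD, n = 4) with an adjusted p of 0.0367. GAPDH gave 0.44, 0.16, 0.51 and 0.56, a mean of 0.42 ± 0.18 (SD, n = 4) with an adjusted p of 0.0445. Every bull read higher in Cy5 for these genes, and also for ALDOA (0.44 ± 0.26) and LDHA (0.36 ± 0.31), which were not called. PGK1 (0.23 ± 0.24), PGAM2 (0.26 ± 0.29) and ENO3 (0.26 ± 0.26) read higher in 3 of 4 bulls. Without replicate 2, 3 or 4, 0 enzymes were called in this check and 3 to 6 passed at an unadjusted p under 0.05. With all 4 bulls, 4168 of the 17061 probes passed at that level. Without replicate 1, 5 were called, as were 33.5% of all probes.

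**Figure D2:**
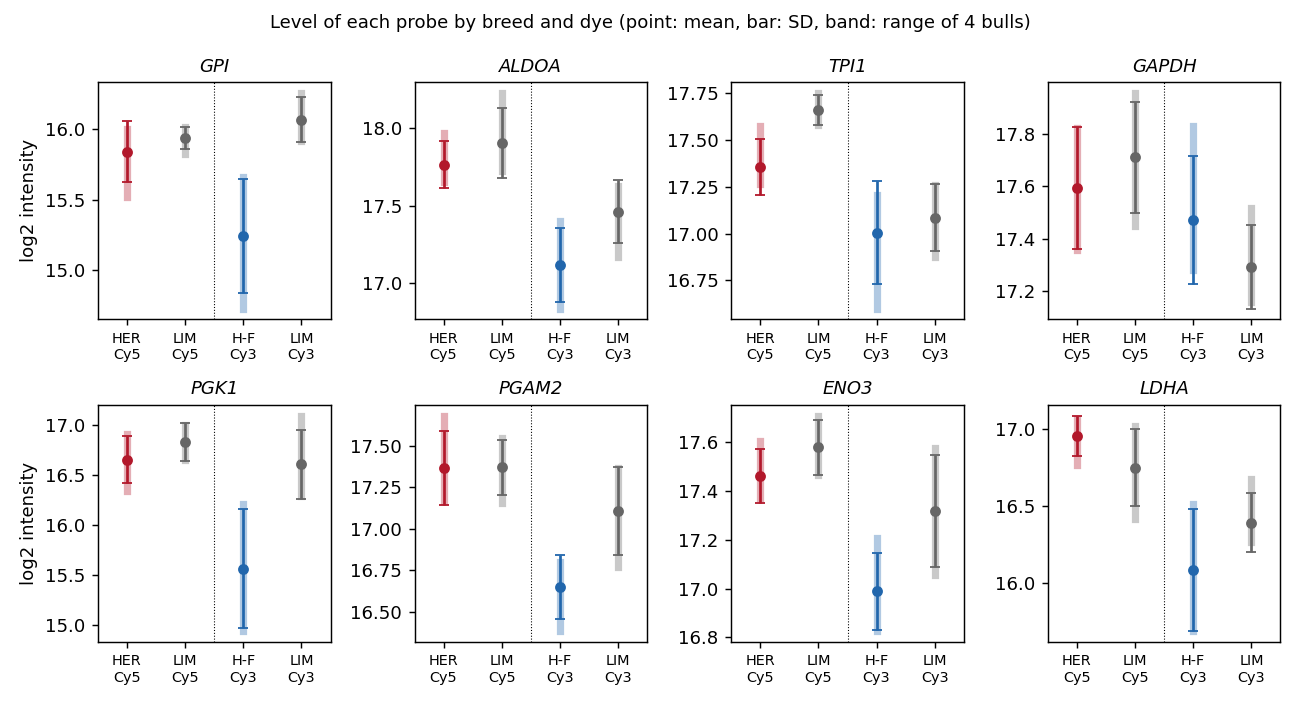
Normalised log2 intensity (vertical axis, a scale of its own for each probe) of 8 glycolytic enzymes in Hereford (HER, red) beside Limousin (LIM, grey) in Cy5, and in Holstein-Friesian (H-F, blue) beside Limousin in Cy3. Points are means, bars SD and bands the range of 4 bulls; Holstein-Friesian lies wholly below Limousin for GPI and PGK1, and Hereford lies wholly below Limousin for TPI1.

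Comparing each breed with Limousin in the same dye, across the slides, removes the dye from the ratio but not the slide. In this reading Holstein-Friesian had a median of -0.34 and 7 of 8 enzymes under 0, with GAPDH at 0.18. GPI read -1.22, -0.59, -1.0004 and -0.47, a mean of -0.82 ± 0.35 (SD, n = 4) with an adjusted p of 0.0180 in limma. PGK1 read -1.30, -0.88, -1.60 and -0.39, a mean of -1.04 ± 0.52 (SD, n = 4) with an adjusted p of 0.0210. ENO3 averaged -0.33 ± 0.12 (SD, n = 4) with an adjusted p of 0.0472. These 3 were called and lay below Limousin in 4 of 4 arrays, where 5.96% of all probes were called and 2.98% were called lower. PGAM2 averaged -0.46 ± 0.17 (adjusted p 0.0633), ALDOA -0.34 ± 0.35 (adjusted p 0.217) and LDHA -0.31 ± 0.31 (adjusted p 0.216), and TPI1 stood at -0.08 ± 0.15 (adjusted p 0.602; SD, n = 4 each, limma).

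Hereford in the same-dye reading had a median of -0.12, with 7 of 8 enzymes under 0 and LDHA at 0.21. No enzyme was called in limma and 1 passed at an unadjusted p under 0.05. TPI1 had the lowest mean, -0.31 ± 0.14 (SD, n = 4, adjusted p 0.0733), with all 4 Hereford levels below those of Limousin in Cy5, as were 8.94% of all probes. Hereford minus Holstein-Friesian in this reading had a median of 0.33 and 0 calls in limma, with 4 enzymes at an unadjusted p under 0.05, and the differences of TPI1 (-0.23) and GAPDH (-0.30) were under 0.

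The size of every ratio also depended on how the bright end of each array was scaled. Relative to simple median centring, loess moved the enzyme ratios by a median of -0.59 in Hereford arrays, and by 0.84 in Holstein-Friesian arrays. In Holstein-Friesian replicate 1 all 8 enzymes moved the other way, by -0.30 to -0.18, and in the other 3 arrays of that breed by 0.73 to 1.51. With median centring the enzymes had a median of 0.88 in Hereford and -1.40 in Holstein-Friesian, against medians over all probes of 0.10 and -0.20. Then 8 of 8 were called lower in Holstein-Friesian, as were 27.8% of all probes, and ALDOA (0.95, adjusted p 0.0422 in limma) was called higher in Hereford, as were 1.61% of all probes. The marbled mean moved little, to a median of -0.28.

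**Figure D3:**
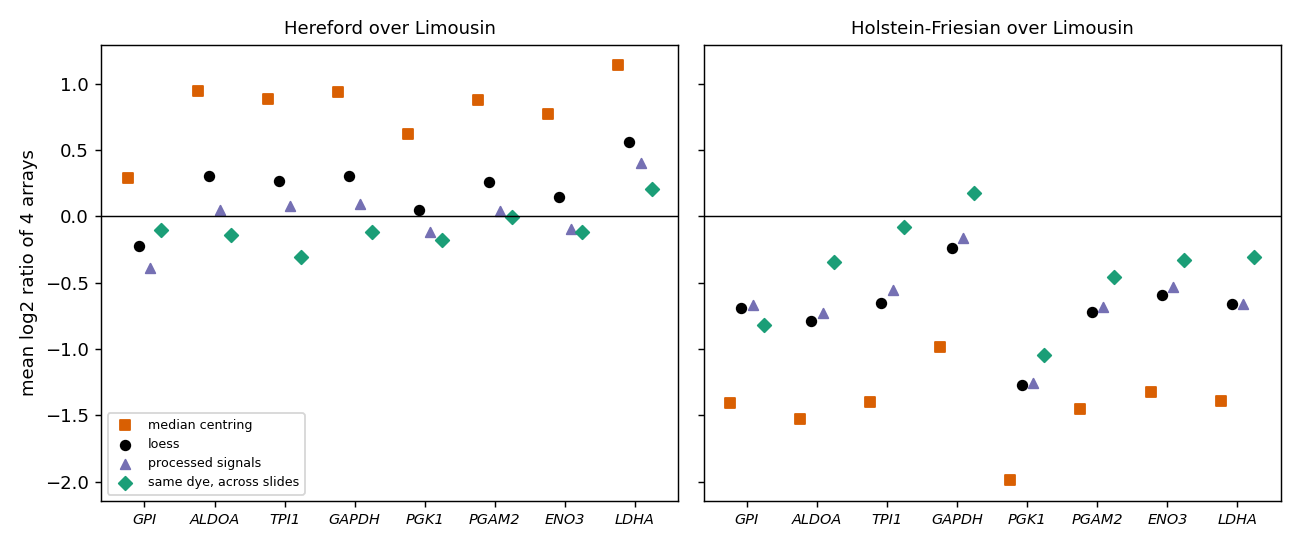
Mean log2 ratio of breed over Limousin (vertical axis) of 8 glycolytic enzymes under 4 readings, for Hereford (left panel) and Holstein-Friesian (right panel): median centring (orange squares), loess (black circles), the scanner's processed signals (violet triangles) and the same-dye reading across slides (green diamonds). PGK1 stays below -1 in Holstein-Friesian in all 4 readings, and most Hereford means change sign between them.

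The other isozymes of the same steps, which dominate outside muscle or in other fibres, were measured for 9 of 12 listed genes. One was called: LDHB, the heart-type lactate dehydrogenase subunit typical of oxidative fibres, rose in Holstein-Friesian, where 3.00% of all probes were called higher. Its ratios were 2.32, 0.69, 1.42 and 0.51 in Holstein-Friesian, a mean of 1.24 ± 0.82 (SD, n = 4) with an adjusted p of 0.0466 in limma. With the replicate block the adjusted p was 0.0583, in the same-dye reading LDHB stood at 1.16 with an adjusted p of 0.0531, with median centring at 0.60 with an adjusted p of 0.215, and without each replicate in turn the adjusted p was 0.0857 to 0.173. In Hereford LDHB read 0.58, 1.46, 1.33 and 0.58, a mean of 0.99 ± 0.47 (SD, n = 4) with an adjusted p of 0.0831. All 8 arrays of the marbled breeds were above Limousin for LDHB, and over the marbled breeds its mean was 1.11 ± 0.41 (SD, n = 4 bulls, adjusted p 0.0576, and 0.0467 with the replicate block). LDHA, its muscle partner, had means on opposite sides of Limousin in the breeds, and neither was called.

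PFKL, the liver phosphofructokinase, averaged -0.49 ± 0.28 in Hereford and 0.52 ± 0.45 in Holstein-Friesian (SD, n = 4 each), and neither was called. The difference of -1.01 had an adjusted p of 0.0638 in limma and of 0.0318 with the replicate block. ALDOC, the aldolase of brain, averaged -0.17 ± 0.33 in Hereford and 0.44 ± 0.32 in Holstein-Friesian; the difference of -0.60 had an adjusted p of 0.154, and of 0.0463 with the replicate block. PFKP, PGAM1, ENO2, PKLR and PGK2 had means between -0.02 and 0.24 in Hereford and between -0.09 and 0.19 in Holstein-Friesian, none called. With the processed signals PGK2 (-1.58) and PKLR (-0.58) were called lower in Holstein-Friesian, in whose 4 channels neither probe was above background.

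Of 16 listed genes that feed, branch from or oppose glycolysis, 10 were measured, and in Holstein-Friesian 1 was called higher and 2 lower. Over all probes 3.00% were called higher there and 3.45% lower. FBP1 is a fructose bisphosphatase, which reverses the phosphofructokinase step. It read 1.22, 1.28, 3.86 and 2.60 in Holstein-Friesian, against 0.58, -0.0038, 0.45 and -0.19 in Hereford. The Holstein-Friesian mean was 2.24 ± 1.25 (SD, n = 4) with an adjusted p of 0.0196 in limma, 2.19 in the same-dye reading and 3.61 with the processed signals. Its probe was well above background in 4 of 4 Holstein-Friesian and 7 of 8 Limousin channels. Hereford averaged 0.21 ± 0.36, and the difference of -2.03 between the breeds had an adjusted p of 0.0951, and of 0.0397 with the replicate block. FBP1 was not called without replicate 2, 3 or 4. FBP2, the other listed fructose bisphosphatase, read -0.59, -0.09, -0.46 and 0.20 in Holstein-Friesian and was not called.

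PFKFB1 makes and degrades fructose 2,6-bisphosphate, an activator of phosphofructokinase. It fell in Holstein-Friesian, with ratios of -0.42, -1.20, -1.48 and -1.03 and a mean of -1.03 ± 0.45 (SD, n = 4, adjusted p 0.0204 in limma). In Hereford it averaged -0.40 ± 0.39 (SD, n = 4, adjusted p 0.241), and the same-dye reading gave -1.003 in Holstein-Friesian (adjusted p 0.0129). TKFC, the triokinase that passes fructose carbon into the triose steps, fell by 0.44 in Holstein-Friesian (SD 0.06, n = 4, adjusted p 0.0337). It averaged -0.31 ± 0.26 in Hereford (SD, n = 4, adjusted p 0.0873 in limma). TKFC also read lower in Cy5 than in Cy3 in Limousin, by -0.29, with an adjusted p of 0.0477 in limma. Neither fall was called without replicate 2, 3 or 4.

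Of 20 listed genes that decide the fate of pyruvate and lactate, 14 were measured. In Hereford 2 were called higher, where 3.39% of all probes were, and in Holstein-Friesian 1, where 3.00% were. PDK4, the kinase that shuts off pyruvate dehydrogenase, was called higher in both breeds, at 2.71 ± 0.68 in Hereford (adjusted p 0.0168) and 3.05 ± 1.29 in Holstein-Friesian (adjusted p 0.0112; SD, n = 4 each, limma). Without replicate 2 neither PDK4 call passed (adjusted p 0.0870 in Hereford and 0.0728 in Holstein-Friesian), and without replicate 4 the Hereford call did not (adjusted p 0.0835). SLC16A1, a monocarboxylate transporter that carries lactate, was called higher in Hereford. It read 0.90, 0.86, 0.16 and 0.60 there, a mean of 0.63 ± 0.34 (SD, n = 4, adjusted p 0.0257 in limma), and 0.69 in the same-dye reading. In Holstein-Friesian it averaged 0.17 ± 0.15 (adjusted p 0.454), and the difference between the breeds was 0.46 with an adjusted p of 0.184. Without replicate 1, 2 or 4 the Hereford call did not pass.

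All 5 listed glucose transporters were measured. SLC2A1, the basal transporter, was called higher in Holstein-Friesian, where 3.00% of all probes were called higher. Its ratios there were 1.08, 0.41, 1.22 and 0.99. Its mean there was 0.93 ± 0.35 (SD, n = 4, adjusted p 0.0105 in limma), 0.99 in the same-dye reading and 1.76 with the processed signals. In Hereford SLC2A1 read -0.21, 0.04, 0.28 and -0.03, close to Limousin. The difference of -0.91 between Hereford and Holstein-Friesian had an adjusted p of 0.0482, where 1.15% of all probes were called lower, and of 0.0643 in the same-dye reading. Without any 1 of the 4 replicates that difference did not pass (adjusted p 0.104 to 0.267), and without replicate 3 or 4 neither did the Holstein-Friesian call. SLC2A4, the insulin-regulated transporter of muscle and fat, averaged -0.60 ± 0.57 in Hereford (adjusted p 0.135) and 0.05 ± 0.39 in Holstein-Friesian (adjusted p 0.920; SD, n = 4 each, limma).

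**Figure D4:**
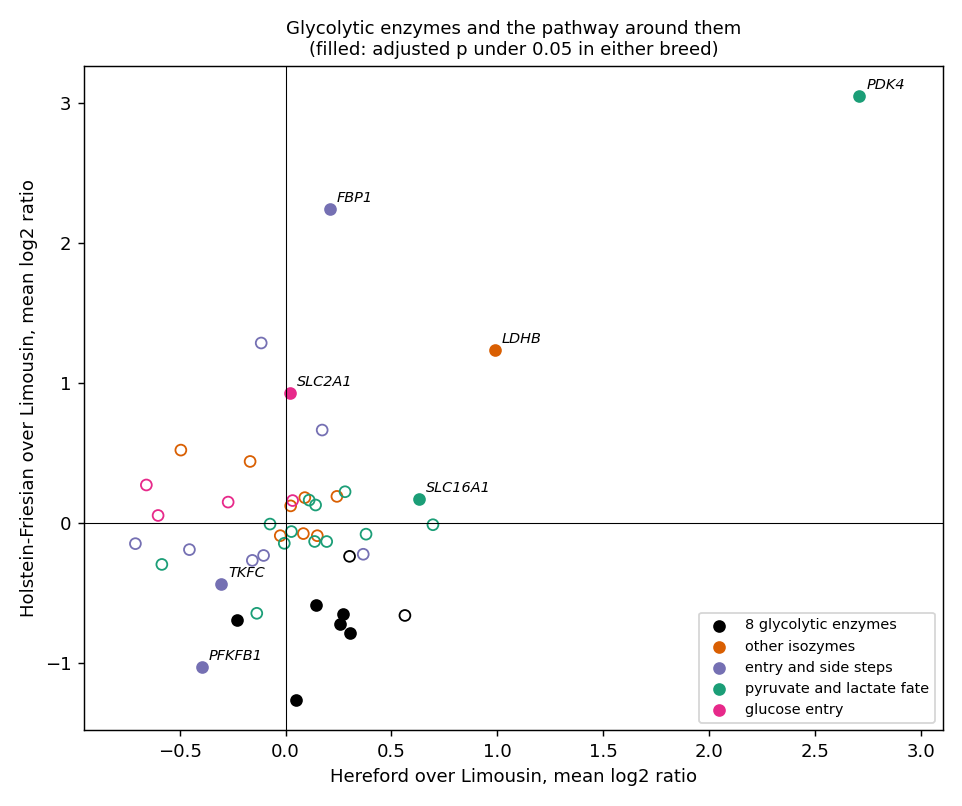
Mean log2 ratio in Hereford over Limousin (horizontal axis) against Holstein-Friesian over Limousin (vertical axis), 1 point per gene, for the 8 glycolytic enzymes (black) and 4 lists of neighbouring genes; filled points were called in either breed and the called neighbours are named. Both axes share the Limousin bulls; the enzymes lie below 0 on the vertical axis, while PDK4 and LDHB lie above 0 on both.

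The listed markers of fibre types are given beside the enzymes. Of 12 listed slow fibre markers 9 were measured, with a median of 1.18 in Hereford and 0.88 in Holstein-Friesian. Limma called 4 higher in Hereford, where 3.39% of all probes were called higher, and 1 in Holstein-Friesian, where 3.00% were. MYH7, the slow myosin heavy chain, averaged 1.18 ± 0.40 in Hereford (adjusted p 0.0470) and 1.06 ± 0.84 in Holstein-Friesian (adjusted p 0.0681). The summed intensity of the 9 slow markers was 461274 to 692690 in Hereford against 266709 to 397143 in Limousin in Cy5, and 450397 to 989981 in Holstein-Friesian against 223210 to 306772 in Limousin in Cy3. Neither breed overlapped Limousin in these sums, which are after loess. With median centring the median ratio of the 9 slow markers was 1.75 in Hereford and 0.20 in Holstein-Friesian.

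Of 13 listed fast fibre markers 7 were measured, with a median of 0.29 in Hereford and -0.48 in Holstein-Friesian. Limma called 0 in Hereford, with 3 at an unadjusted p under 0.05, and 2 lower in Holstein-Friesian. Over all 17061 probes 7.14% were called in Hereford, where 4122 passed at that unadjusted level, and 3.45% were called lower in Holstein-Friesian. TNNC2, the fast troponin C, fell by 0.68 in Holstein-Friesian (SD 0.29, adjusted p 0.0187), and PVALB, the calcium buffer parvalbumin, fell by 1.90 (SD 0.87, adjusted p 0.0111; n = 4 each, limma). The fast myosin heavy chains MYH2 (0.51 ± 0.81) and MYH1 (0.04 ± 0.25) lay above 0 in Holstein-Friesian and were not called (SD, n = 4 each). TNNC2 also read higher in Cy5 in Limousin, by 0.57, and PVALB lower, by -0.36. The 7 fast markers summed to 988217 to 1099789 in Hereford and 986314 to 1089569 in Limousin in Cy5. In Cy3 the range was 785617 to 875505 for Holstein-Friesian bulls and 714060 to 877336 for Limousin bulls. These sums overlapped for both breeds. The 8 enzymes summed to 1098077 to 1371200 in Hereford against 1280774 to 1368643 in Limousin in Cy5, and to 721236 to 1036091 in Holstein-Friesian against 963335 to 1187638 in Limousin in Cy3. Fibre composition as a part of the enzyme ratios was not tested.

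Of 6 fibroblast markers, all measured, 1 was called lower in Holstein-Friesian. Their median there was -0.90, and they summed to 13800 to 29574 there against 32050 to 52912 in Limousin in Cy3. Of 8 adipocyte markers 7 were measured, with 1 called higher (CFD, 1.17) and 1 lower (CIDEA, -0.42) in Holstein-Friesian. Their median there was -0.26, with 5 of 7 under 0, and they summed to 3330 to 5266 there against 2452 to 3760 in Limousin in Cy3. Over all probes 3.00% were called higher in Holstein-Friesian and 3.45% lower. Neither list had a call in Hereford, where 7.14% of all probes were called. Of the 8 measured skeletal muscle markers 2 were called lower in Holstein-Friesian and 0 were called in Hereford. Their Holstein-Friesian median was -0.11, with means from -1.02 to 0.38. The part of these markers in the enzyme ratios was not tested.

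The 6 named genes whose ratios over the 8 arrays most resembled the median of the enzymes, among 6685 genes outside the set, were ATG10, HBS1L, GOLPH3, RDX, RTN4 and GKAP1. Their Pearson r with the enzyme median was 0.959 (GKAP1) to 0.975 (ATG10), a description over 8 arrays that share 4 Limousin bulls and are split by breed, dye and slide. RDX, which codes for the membrane linker radixin, averaged 0.29 in Hereford and -0.62 in Holstein-Friesian, and read 0.40 higher in Cy5 than in Cy3 in Limousin. RTN4, a reticulon of the endoplasmic reticulum, averaged 0.35 in Hereford and -0.34 in Holstein-Friesian, and read 0.16 higher in Cy5. GKAP1 averaged 0.04 in Hereford and -0.75 in Holstein-Friesian, and read -0.08 in the dye check.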

How the data were processed

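RNA of 12 bulls was measured on 8 Agilent arrays and extracted by version 10.7.3.1 of Agilent Feature Extraction, per the submitters' processing notes. Spot and background intensity were medians over pixels, per the file headers; the scanner's processed signals, also intensity, had been background-subtracted and dye-normalized by the authors' software. The deposited table gave the log10 of Cy5 over Cy3, which matched the scanner's own log ratio in 44407 of 44407 spots of each array, within a tolerance of 1e-06.

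Background was corrected with normexp (offset 50), and loess (span 0.3) was run within each array in limma 3.58.1 (R 4.3.3). Each ratio was expressed as breed over Limousin. Control and outlier spots were left out, and spots were averaged over 21475 probes, of which 17061 were well above background in at least 4 of 16 readings. The brightest kept probe stood for its gene. Symbols came from a RefSeq table of ARS-UCD2.0, used for names only (7788 genes), since the file headers give Btau_3.1 as the annotation build of the array. Plots used matplotlib 3.10.9.

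lmFit and eBayes were run over all 8 arrays, with two-sided tests and p-values adjusted over all kept probes; the marbled comparison and the Limousin dye check used 4 values per probe, 1 for each Limousin bull. Levels are log2 intensities after loess and Aquantile. Named genes were the enzymes, then the called genes (at most 4 per direction) and isozyme partners in 4 pathway lists, and the 6 most alike genes. SLC2A4, the fibre markers, CFD and CIDEA were named in addition, after their values were seen, and 1 isozyme is not reported here. The members and lists were chosen with earlier results of these data known. In the labels a Limousin bull keeps its number across slides, and the numbers therefore pair the arrays. Residuals of same-numbered arrays correlated at r of 0.41, 0.27, 0.50 and 0.10 for replicates 1 to 4. The highest r with another number was 0.144, 0.008, -0.021 and 0.136, which for replicate 4 was above the same-number r. The replicate block had a consensus correlation of 0.31 (statmod 1.5.0).

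Alternatives were the processed signals, median centring, the deposited ratios, stricter and no filters, the mean over a gene's probes, each replicate left out, the replicate block, each breed alone and same-dye ratios. The test was tried on simulated data. Arrays give no counting error, and their number limits the precision.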

Additional observations from a re-analysis of the deposited data

Results flagged for a closer look

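ALDOA in Hereford replicate 4 was 0.80, while the other 3 Hereford arrays were at 0.12 to 0.16. GPI in the marbled mean was -0.26 for Limousin bull 4, while the other 3 bulls were at -0.55 to -0.51. FBP1 in the dye check was 0.17 for Limousin bull 1, with the other 3 at -0.14 to -0.12. These 3 values came from 60 groups of 4 tested over 15 genes, and chance alone marks about 1 in 20 such groups. The Hereford minus Holstein-Friesian contrast passed limma's threshold for TPI1 (0.92), LDHA (1.23) and SLC2A1 (-0.91). Without any 1 replicate 0 of these 3 differences passed, and in the same-dye reading 0 passed, with TPI1 at -0.23. TPI1 and LDHA read 0.57 and 0.36 higher in Cy5 than in Cy3 in the same Limousin bulls, and SLC2A1 read 0.07 higher. The part of the dye in these differences, which is read together with the slide, was not tested.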

How the results depend on the processing

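The direction of the enzyme median held under every alternative for Holstein-Friesian, the marbled mean, the breed difference and the dye check, but in Hereford it was -0.12 in the same-dye reading. Median centring moved it to 0.88 in Hereford, -1.40 in Holstein-Friesian, 2.30 for the difference and 0.97 for the dye check, and the same-dye reading to -0.34 in Holstein-Friesian and 0.33 for the difference. Over all probes median centring shifted the median to 0.10, -0.20, 0.36 and 0.19 in those comparisons.

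Single enzymes reversed as follows. In Hereford, PGK1 (-0.11) and ENO3 (-0.10) did so with processed signals and deposited ratios, GPI (0.29) with median centring, and ALDOA (-0.14), TPI1 (-0.31), GAPDH (-0.12), PGK1 (-0.18), PGAM2 (-0.0064) and ENO3 (-0.12) in the same-dye reading. In Holstein-Friesian GAPDH (0.18) reversed in the same-dye reading, and so did TPI1 (-0.23) and GAPDH (-0.30) in the difference. In the marbled mean GAPDH was -0.035 with processed signals and deposited ratios, -0.025 with median centring and -0.038 as the mean of its probes. GPI was 0.49 in the dye check with median centring. Leaving out 1 replicate gave PGK1 in Hereford -0.067 to 0.31, and in the marbled mean GAPDH -0.048 to 0.18 and LDHA -0.12 to 0.020. The cause was not tested. Of the values for single enzymes, 366 kept direction and side of the threshold, 24 reversed, 57 no longer passed and 25 newly passed.

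Probes called numbered 1218 in Hereford, 315 with median centring, 683 in the same-dye reading and 27 with each breed alone. Holstein-Friesian had 1100, with 2157 for processed signals, 2129 for deposited ratios and 6678 for median centring. The marbled mean had 102, against 444, 438 and 950 under those settings, 371 with all readings above background, 42 with no filter and 910 with the replicate block. The difference had 463, against 974, 979 and 6219, with 1714 for the replicate block and 231 in the same-dye reading. The dye check had 750, against 0 for processed signals (limma, 4444 at an unadjusted p under 0.05) and 3269 for median centring. With a replicate left out, limma called 30 to 1055, 78 to 810, 0 to 1, 0 to 457 and 0 to 5713 probes in these 5 comparisons. The share of calls that were higher moved from 47.5% to 87.0% in Hereford with median centring, from 46.5% to 29.0% in Holstein-Friesian, from 53.9% to 23.1% in the marbled mean, from 57.5% to 78.1% in the difference and from 44.5% to 95.5% in the dye check.

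In Holstein-Friesian 3 enzymes were called with the replicate block (ALDOA, TPI1 and PGK1) and 3 with each breed alone. No filter gave 4, processed signals 5 and all readings above background 7. In that order these settings called 3.35%, 2.68%, 2.51%, 7.85% and 4.57% of the probes tested lower. The replicate block changed no member's call in Hereford or in the marbled mean. FBP1 has no value with all readings above background, the deposited ratios give none for the dye check, and the same-dye reading leaves the marbled mean as it is.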
